A study of Mus musculus with 58 samples.

Results

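The aryl hydrocarbon receptor gene Ahr and 4 of the receptor's target genes, Cyp1a1, Cyp1b1, Ahrr and Tiparp, were followed across organoids treated with an EGFR inhibitor or a Mek inhibitor. The 5 genes were taken by symbol from 16626 genes listed for the 6 h libraries, 18440 for the 96 h libraries and 17345 for the sorted libraries. They were selected on values of these same libraries, among them those of Cyp1a1 at 6 h in Ei, Mi and ENR organoids. The comparisons among these groups at 6 h are therefore given as a description without a test. Earlier results of these data were known at the selection, so the other bulk tests are not shown to be independent of it.

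The RNA came from organoids, cultures of epithelium grown from the small intestine of Bl/6 mice, and was counted by CEL-seq, which reads the 3' ends of transcripts. Whole organoids were treated with an EGFR inhibitor (Ei), treated with a Mek inhibitor (Mi) or left in the standard medium (ENR, named for EGF, Noggin and R-spondin). A second medium inhibited Wnt and Notch and was combined with the EGFR inhibitor (IDE), with the Mek inhibitor (IDM) or with neither (ID). Each of these 6 groups had 3 libraries at 6 h and 3 at 96 h. Sorted cells came from Ei and ENR organoids, as Lgr5+ cells of an Lgr5-GFP and an Lgr5-DTR line and Dclk1+ cells of a Dclk1-GFP line, with 2 libraries a group, beside 2 libraries of whole control organoids. The single-cell libraries were 4 of IDE, 2 of IDM, 1 of Ei and 1 of ENR. The labels name no compound and no dose for any inhibitor. Nothing in them says that libraries of a group came from separate cultures or animals, so p-values measure the spread between libraries, which may be technical.

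The libraries held 448292 to 2763423 counts each at 6 h and 158135 to 1738425 each at 96 h, while the sorted ones held 668893 to 3599554. The Ei libraries of 96 h were shallow, with 554681, 158135 and 228954 counts, and those of IDM had 231990 to 337789. In the library names, the ENR, Ei and Mi libraries belong to set 1 at 6 h and set 3 at 96 h, and the ID, IDE and IDM libraries to sets 2 and 4. Time and medium therefore cannot be told apart from library set, and 6 h was not tested against 96 h. Dusp6, a phosphatase gene that ERK signalling switches on, checked the inhibitors. At 6 h it averaged 9.55 CPM in Ei, 3.86 CPM in Mi and 41.9 CPM in ENR, and 5.23 CPM in IDE, 3.05 CPM in IDM and 40.3 CPM in ID. At 96 h it averaged 16.6 CPM in Ei, 5.35 CPM in Mi and 69.9 CPM in ENR, and 13.1 CPM in IDE, 8.21 CPM in IDM and 121 CPM in ID. In the sorted cells Dusp6 did not follow the labels in this way. It had 9.78 and 32.7 CPM in the Dclk1+ libraries labelled Ei and 1.36 and 6.63 CPM in those labelled ENR, which is the opposite direction, although the difference was not called (log2 2.26, SE 0.74, adjusted p = 0.091, and 0.033 without the first Ei library). In Lgr5+ cells it averaged 15.7 CPM in Ei and 24.7 CPM in ENR, and this difference was not called either (log2 -0.61, SE 0.44, adjusted p = 0.50). CPM are counts relative to the total of the library, after scaling between libraries.

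The aryl hydrocarbon receptor (AHR) is a transcription factor that waits in the cytoplasm in a complex with the chaperone Hsp90 and its partner p23 (encoded by Ptges3). On binding a ligand, such as a planar aromatic compound from smoke, the diet or gut microbes, it enters the nucleus, pairs with Arnt and binds DNA at sites with the core GCGTG. Cyp1a1 and Cyp1b1 encode monooxygenases that oxidise many such ligands, and in the gut the epithelial enzymes limit how much ligand reaches the body. Ahrr encodes a repressor that competes with the receptor for Arnt, and Tiparp encodes a mono-ADP-ribosyltransferase that shortens the receptor's activity. EGFR signals through Ras and Raf to Mek and ERK, so a Mek inhibitor acts on 1 branch below the receptor that the EGFR inhibitor blocks.

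On mm10 (GRCm38) with GENCODE M21, all 5 are annotated as protein-coding genes. Cyp1a1 lies at chr9:57687928-57703824 on the plus strand, Cyp1b1 at chr17:79701537-79715061 on the minus strand, and Ahrr at chr13:74211118-74292331 on the minus strand. Tiparp lies at chr3:65528410-65555518 on the plus strand and Ahr at chr12:35497974-35535038 on the minus strand. The 250 bases before the start of transcription were read from RefSeq (GRCm38.p6), where 4 of the 5 members had an entry, and the start that RefSeq gives for Cyp1a1 and Tiparp lies inside the GENCODE gene span. Of these, 3 are printed 5' to 3' on the gene's strand, because Cyp1a1 and Cyp1b1 are the members whose counts stood apart between groups and Ahrr holds the most matches, with GCGTG, or its reverse complement CACGC, in capitals. The windows are chr9:57697363-57697612 for Cyp1a1, chr17:79715062-79715311 for Cyp1b1 and chr13:74292332-74292581 for Ahrr.
Cyp1a1: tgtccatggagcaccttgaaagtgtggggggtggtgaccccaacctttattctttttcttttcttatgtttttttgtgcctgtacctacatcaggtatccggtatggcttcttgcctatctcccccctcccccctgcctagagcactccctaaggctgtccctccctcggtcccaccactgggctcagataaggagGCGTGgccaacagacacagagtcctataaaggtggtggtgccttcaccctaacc
Cyp1b1: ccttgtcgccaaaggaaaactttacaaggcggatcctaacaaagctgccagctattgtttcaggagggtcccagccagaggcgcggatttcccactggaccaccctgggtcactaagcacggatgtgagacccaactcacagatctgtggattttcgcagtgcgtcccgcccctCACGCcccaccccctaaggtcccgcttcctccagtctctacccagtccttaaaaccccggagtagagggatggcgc
Ahrr: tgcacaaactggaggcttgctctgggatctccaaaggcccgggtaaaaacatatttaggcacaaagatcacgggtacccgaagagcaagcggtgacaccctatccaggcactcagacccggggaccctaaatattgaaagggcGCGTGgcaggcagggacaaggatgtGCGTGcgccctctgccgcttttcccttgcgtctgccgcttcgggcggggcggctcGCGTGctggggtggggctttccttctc

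All 4 promoters held the core on 1 strand or the other. Cyp1a1 had 1 match, which began 54 bases before the start, Cyp1b1 had 1 at 76 bases and Tiparp had 1 at 170 bases. Ahrr had 3 matches, at 107, 82 and 27 bases, and 1 of them also had the longer form TNGCGTG. Of 32851 mouse promoters of the same length, 28.2% held GCGTG on either strand and 4.10% held TNGCGTG. A match is only a description of the letters. In the mouse the best known receptor sites of Cyp1a1 lie further upstream, outside this window.

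At 6 h in standard medium Cyp1a1 was the member that separated the groups. It had 10, 34 and 30 counts in the 3 Ei libraries, or 12, 22.6 and 29.3 CPM. Mi libraries had 3, 6 and 3 counts, or 2.59, 5.29 and 2.76 CPM. ENR libraries had 0, 0 and 1 count. No Ei library overlapped a Mi library, and no Mi library overlapped an ENR library. Pooled over libraries the count ratio was 6.19 for Ei over Mi and 13.1 for Mi over ENR, the latter resting on 1 count in ENR. These values chose the genes, and nothing is read from them. In the same comparisons 28.1% of 9380 tested genes differed between Ei and ENR at an adjusted p under 0.05, 23.1% between Mi and ENR, and 0.0959% between Ei and Mi.

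Under Wnt and Notch inhibition Cyp1a1 rose at 6 h with either inhibitor. It had 22, 34 and 76 counts in IDE, or 22.3, 24.8 and 27.1 CPM, and 14, 9 and 17 counts in IDM, or 13.3, 6.47 and 11.2 CPM. The ID libraries had 1, 3 and 2 counts, or 2.24, 2.07 and 1.48 CPM. The 3 groups did not overlap, with IDE highest and ID lowest. IDE over ID was 13-fold (log2 3.70, SE 0.47, adjusted p = 1.9e-07). IDM over ID was 5.26-fold (log2 2.40, SE 0.55, adjusted p = 0.0015). Leaving out any 1 library kept both calls, with log2 differences from 3.51 to 3.83 for IDE over ID and from 2.20 to 2.64 for IDM over ID. Of the 5 members, Cyp1a1, Tiparp and Ahr were tested at 6 h. Cyp1a1 was the only 1 called in either comparison, where 22.5% of 9380 tested genes were called for IDE against ID and 20.7% for IDM against ID. It had few counts in ID, so it was tested only because its treated groups were high. Fitted with every gene that had a count, and so with no filter, both calls held (adjusted p = 1.8e-12 for IDE and 0.00062 for IDM). Fitted to the IDM and ID libraries alone, Cyp1a1 fell below the filter and was not tested for that pair.

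The direct comparison of IDE with IDM missed the threshold. Cyp1a1 averaged 24.7 ± 2.36 CPM in IDE and 10.3 ± 3.51 CPM in IDM (SD, n = 3 each), a 2.46-fold difference (log2 1.30, SE 0.31, 95% interval 0.69 to 1.91). The unadjusted p was 0.00018 and the adjusted p 0.11. It was higher in 3 of 3 IDE libraries than in every IDM library. In this comparison 0 of the 5 members and 0.0213% of 9380 tested genes were called by edgeR, and 2 members, Cyp1a1 and Tiparp, had an unadjusted p under 0.05. DESeq2 called 0 members but gave Cyp1a1 no adjusted p. Without the low-count filter edgeR called Cyp1a1 (adjusted p = 0.029). Dusp6 did not separate IDE from IDM by the same test (log2 0.77, SE 0.46, adjusted p = 0.62).

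**Figure D1:**
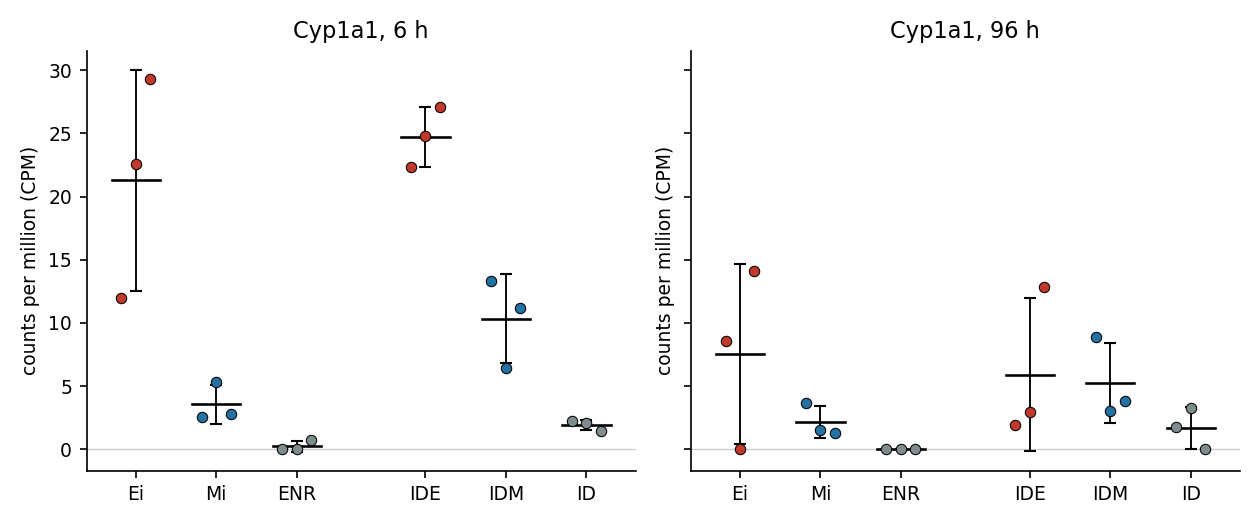
Cyp1a1 level in CPM in each library (points), with the group mean (line) and SD (bar), for 6 groups at 6 h (left) and 96 h (right). At 6 h the Ei and IDE libraries sit between 12 and 29.3 CPM and the ENR and ID libraries at or under 2.24 CPM, the Mi libraries lie between 2.59 and 5.29 CPM, and the IDM libraries between 6.47 and 13.3 CPM, 1 of them above the lowest Ei library.

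ID and ENR were not told apart by Cyp1a1 at 6 h. The ID libraries held 6 counts in all and the ENR libraries 1, a count ratio of 6.82 with a 95% interval of 0.828 to 314. The log2 difference of 2.40 (SE 1.12) missed the threshold (adjusted p = 0.54). Medium and library set cannot be told apart in ID against ENR. By edgeR and by DESeq2 0 of the 5 members were called, where 0.224% of 9380 tested genes were called by edgeR, and 1 member, Cyp1a1, had an unadjusted p under 0.05.

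At 96 h Cyp1a1 had few counts in every group and was below the low-count filter. It averaged 7.56 CPM in Ei, 2.16 CPM in Mi and 0 CPM in ENR. With Wnt and Notch inhibition it averaged 5.91 CPM in IDE, 5.25 CPM in IDM and 1.69 CPM in ID. The highest library was at 14.1 CPM in Ei and at 12.9 CPM in IDE. Few counts in shallow libraries do not show a low level. Cyp1a1 had 5, 0 and 3 counts in Ei, 3, 1 and 1 in Mi and 0, 0 and 0 in ENR. Against a floor of 3 counts over the ENR libraries, observed mean Cyp1a1 was 11.5-fold the floor in Ei and 3.29-fold in Mi. These ratios allow for no counting error in the 8 counts of Ei and 5 of Mi, so they are not lower bounds. The groups still overlapped for Ei, whose second library had 0 counts like ENR and was the shallowest, at 158135 counts in all. Without the filter the difference was called for Ei against ENR (adjusted p = 0.000869) and not for Mi against ENR (adjusted p = 0.051). Cyp1a1 had 1, 3 and 5 counts in IDE, 2, 1 and 1 in IDM and 1, 1 and 0 in ID. These 3 groups overlapped, and none of the differences among them was called without the filter (adjusted p from 0.51 to 1).

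Cyp1b1 stood apart at 96 h, in standard medium and with both inhibitors. It had 13, 1 and 5 counts in Ei, or 22.3, 6.20 and 23.5 CPM, and 7, 6 and 14 counts in Mi, or 8.47, 9.27 and 18.4 CPM. ENR had 0 counts in all 3 libraries, which allows up to 0.658 CPM over the group. All 6 inhibitor libraries were above every ENR library, and Ei and Mi overlapped. Cyp1b1 was called higher by edgeR in Ei (adjusted p = 6.9e-06) and in Mi (adjusted p = 1.4e-05). Its observed mean was 26.4-fold that ENR limit in Ei and 18.3-fold in Mi, with no counting error allowed in the means. Both calls held without any 1 library, with adjusted p up to 0.0021 for Ei and 0.00031 for Mi. Of the 5 members, Cyp1b1, Tiparp and Ahr were tested at 96 h. Cyp1b1 was the only 1 called in either comparison, beside 18.4% of 8135 tested genes for Ei against ENR and 23.3% for Mi against ENR. Cyp1b1 passed the filter only through the groups where it was high, and with no filter both calls held (adjusted p = 1.6e-08 for Ei and 1.2e-07 for Mi). Fitted to the libraries of each pair alone, it fell below the filter and was not tested.

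Ei and Mi were not distinguished by Cyp1b1 at 96 h. It averaged 17.3 ± 9.66 CPM in Ei and 12.1 ± 5.52 CPM in Mi (SD, n = 3 each), a log2 difference of 0.67 (SE 0.55, 95% interval -0.41 to 1.75, adjusted p = 0.73). For Ei against Mi 0 of the 5 members were called by edgeR, where 1.08% of 8135 tested genes were, and 0 members had an unadjusted p under 0.05. DESeq2 called 0 members and left Cyp1b1 without an adjusted p there.

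Under Wnt and Notch inhibition Cyp1b1 stayed near 0 at 96 h. It had 0, 1 and 0 counts in IDE, 1, 1 and 0 in IDM and 0, 0 and 0 in ID, and neither inhibitor was called against ID (adjusted p = 0.53 for IDE and 0.25 for IDM). The 19 counts in Ei and 27 in Mi thus stand beside 1 in IDE and 2 in IDM. Whether the difference from the untreated control depends on the medium could not be fitted for Cyp1b1 by edgeR, because ENR and ID both had 0 counts. DESeq2 gave it an adjusted p of 0.022 for the EGFR inhibitor. With 0 counts in both controls that test cannot decide the question, and nothing is read from it. In those 2 tests of dependence on the medium edgeR called 0 of the 5 members, with 0 at an unadjusted p under 0.05. This stands beside 14.1% of 8135 genes for the EGFR inhibitor and 5.8% for the Mek inhibitor. DESeq2 called 1 and 0 members, the 1 being Cyp1b1 in the test that cannot decide. The test of whether the difference between the inhibitors depends on the medium had a log2 value of 2.58 (SE 1.71, adjusted p = 0.65), with 0 of the 5 members called by edgeR or DESeq2 and 0 at an unadjusted p under 0.05, where edgeR called 0.172% of 8135 genes. At 6 h Cyp1b1 had 0 to 6 counts in every library and fell below the filter. Its counts were 3, 3 and 0 in Ei, 1, 2 and 3 in Mi and 0, 4 and 3 in ENR, and 4, 5 and 6 in IDE, 0, 5 and 4 in IDM and 1, 0 and 0 in ID. All pairs of groups overlapped in CPM, although the 3 IDE libraries had more counts than the 3 ID libraries, a count ratio of 9.45 with a 95% interval of 1.45 to 398. Without the filter that difference was not called (adjusted p = 0.086).

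**Figure D2:**
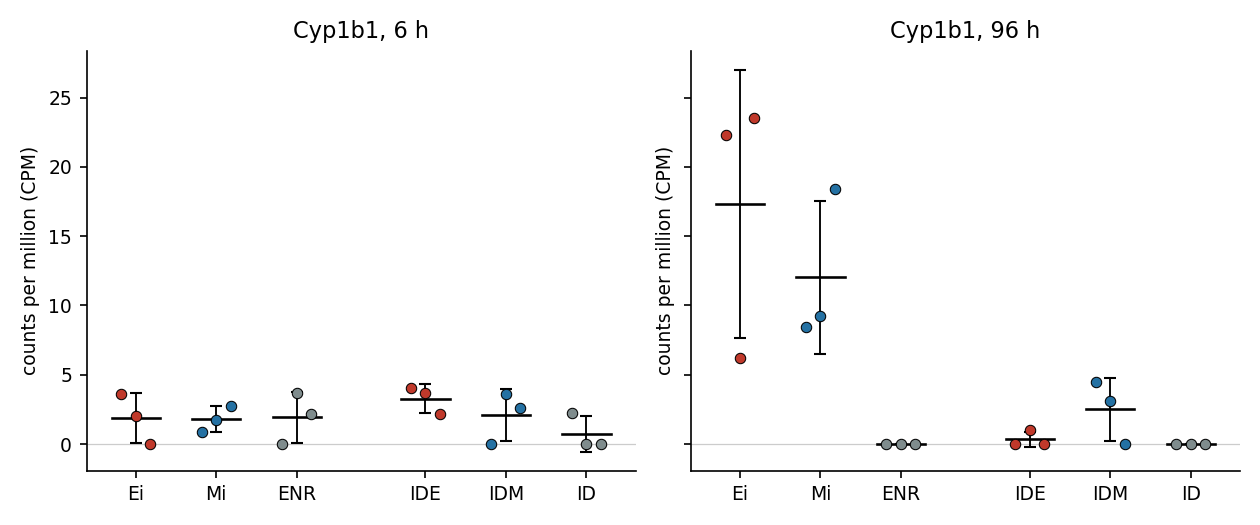
Cyp1b1 level in CPM in each library (points), with the group mean (line) and SD (bar), for 6 groups at 6 h (left) and 96 h (right). At 96 h the Ei and Mi libraries sit between 6.20 and 23.5 CPM, all ENR libraries are at 0, and the IDE, IDM and ID libraries are at or under 4.44 CPM.

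In standard medium at 96 h, markers of several secretory cell types were higher in Ei and Mi than in ENR, as Cyp1b1 was. Those of Paneth cells differed the most in CPM. The summed level of 6 markers, all detected, was 19819 to 28964 CPM in Ei, 16757 to 18091 CPM in Mi and 1657 to 2052 CPM in ENR. It was 2310 to 3844 CPM in IDE, 2786 to 3643 CPM in IDM and 2203 to 3826 CPM in ID. Summed tuft cell markers were 124 to 173 CPM in Ei, 88 to 114 CPM in Mi and 21.3 to 31.3 CPM in ENR. They were 97.9 to 120 CPM in IDE, 269 to 316 CPM in IDM and 29.6 to 79 CPM in ID. Goblet cell markers summed to 3179 to 4464 CPM in Ei, 2131 to 2735 CPM in Mi and 1170 to 1519 CPM in ENR. They reached 9859 to 14882 CPM in IDE, 6998 to 7679 CPM in IDM and 22389 to 40882 CPM in ID. Enteroendocrine markers summed to 2876 to 3403 CPM in Ei, 1834 to 2210 CPM in Mi and 290.4 to 421 CPM in ENR. They reached 6222 to 8828 CPM in IDE, 12023 to 12981 CPM in IDM and 2834 to 4515 CPM in ID. Cyp1b1 was near 0 in IDE, IDM and ID. The part of these cell types in the Cyp1b1 result was not tested, and in bulk RNA fewer cells of a type and less RNA per cell cannot be told apart. Fibroblast markers had low sums. Of 6 fibroblast markers 5 had no count in Ei, among them Col1a1, Col3a1 and Dcn, while 3 were detected in Mi. The sum was 0 to 4.70 CPM in Ei, 1.21 to 10.5 CPM in Mi and 0 to 2.11 CPM in ENR. It was 5.15 to 13.9 CPM in IDE, 3.79 to 33.8 CPM in IDM and 5.38 to 20.7 CPM in ID. Cyp1b1 was itself only at 8.47 to 18.4 CPM in Mi, and the part of fibroblasts in its level was not tested. At 6 h the 6 Paneth markers summed to 2105 to 3109 CPM in Ei, 1786 to 2216 CPM in Mi and 1201 to 1535 CPM in ENR, and to 1576 to 2196 CPM in IDE, 1842 to 3087 CPM in IDM and 1496 to 1555 CPM in ID.

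Ahrr was at or near the limit of detection throughout and was tested nowhere. At 6 h it had 0, 0 and 0 counts in Ei, 0, 0 and 1 in Mi and 0, 0 and 1 in ENR. The IDE libraries had 0, 2 and 3 counts, the IDM libraries 1, 1 and 3 and the ID libraries 1, 3 and 1. Over the Ei group 0 counts allow up to 0.892 CPM. The highest value was 6 counts, in 1 of the ENR libraries at 96 h, whose others had 0 and 3. At that time the Ei libraries had 0, 1 and 1 counts and the Mi libraries 1, 1 and 1, while IDE had 0, 1 and 1, IDM 0, 0 and 0 and ID 0, 1 and 1. A change of Ahrr was not detectable at this depth.

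Tiparp, a target in many cell types, was called in none of the comparisons that were tested, which leave out those among Ei, Mi and ENR at 6 h. At 6 h it had 13.2, 19.2 and 28.3 CPM in Ei, 30.2, 24.7 and 18.4 CPM in Mi and 39.1, 32.8 and 19.7 CPM in ENR. These groups overlapped. It had 24.4, 26.3 and 24.2 CPM in IDE, 13.3, 18.7 and 16.4 CPM in IDM and 26.8, 24.1 and 22.2 CPM in ID. Here every IDM library was below every IDE and ID library. IDE minus IDM was log2 0.60 (SE 0.27, 95% interval 0.07 to 1.13, adjusted p = 0.46) and IDM minus ID was -0.54 (SE 0.29, adjusted p = 0.19). IDE minus ID was 0.06 (SE 0.27, 95% interval -0.46 to 0.59), which leaves out an increase of the size that Cyp1a1 showed in the same libraries. At 96 h Tiparp averaged 24.9 ± 8.29 CPM in Ei, 23.2 ± 4.97 CPM in Mi and 33.9 ± 4.45 CPM in ENR (SD, n = 3 each). Ei minus ENR was log2 -0.65 (SE 0.35, adjusted p = 0.22) and Mi minus ENR was -0.53 (SE 0.27, adjusted p = 0.16). With Wnt and Notch inhibition the 96 h means were 42.3 CPM in IDE, 42.8 CPM in IDM and 42.5 CPM in ID.

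Ahr itself was called in none of the tested comparisons either. At 6 h it had 21.6, 11.9 and 25.4 CPM in Ei, 10.4, 22 and 16.6 CPM in Mi and 28.5, 21.9 and 16 CPM in ENR. It had 20.3, 27.7 and 20.7 CPM in IDE, 13.3, 21.6 and 17.1 CPM in IDM and 22.4, 17.2 and 28.1 CPM in ID. All of these groups overlapped, and IDE minus IDM was log2 0.37 (SE 0.29, 95% interval -0.20 to 0.94, adjusted p = 0.72). At 96 h the Ei libraries had 8, 1 and 1 counts of Ahr, the Mi libraries 11, 17 and 10 and the ENR libraries 17, 17 and 27. The log2 difference was -0.38 for Ei minus ENR (SE 0.58, 95% interval -1.51 to 0.76) and 0.36 for Mi minus ENR (SE 0.41, 95% interval -0.43 to 1.16). At these counts a smaller change was not detectable. The IDE libraries of 96 h had 5, 16 and 3 counts of Ahr, the IDM libraries 4, 3 and 12 and the ID libraries 10, 3 and 16, with IDE minus IDM at log2 -0.94 (SE 0.55, 95% interval -2.02 to 0.13, adjusted p = 0.34). With Wnt and Notch inhibition at 96 h, 23.8% of 8135 tested genes were called for IDE against ID, 13.5% for IDM against ID and 4.7% for IDE against IDM, and 0 of the 5 members were called by edgeR or DESeq2 in any of the 3, where 0 members had an unadjusted p under 0.05. For ID against ENR at 96 h 38.1% of the genes were called by edgeR, and 0 of the 5 members by edgeR or DESeq2, with 0 members at an unadjusted p under 0.05. In that comparison medium and library set cannot be told apart.

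**Figure D3:**
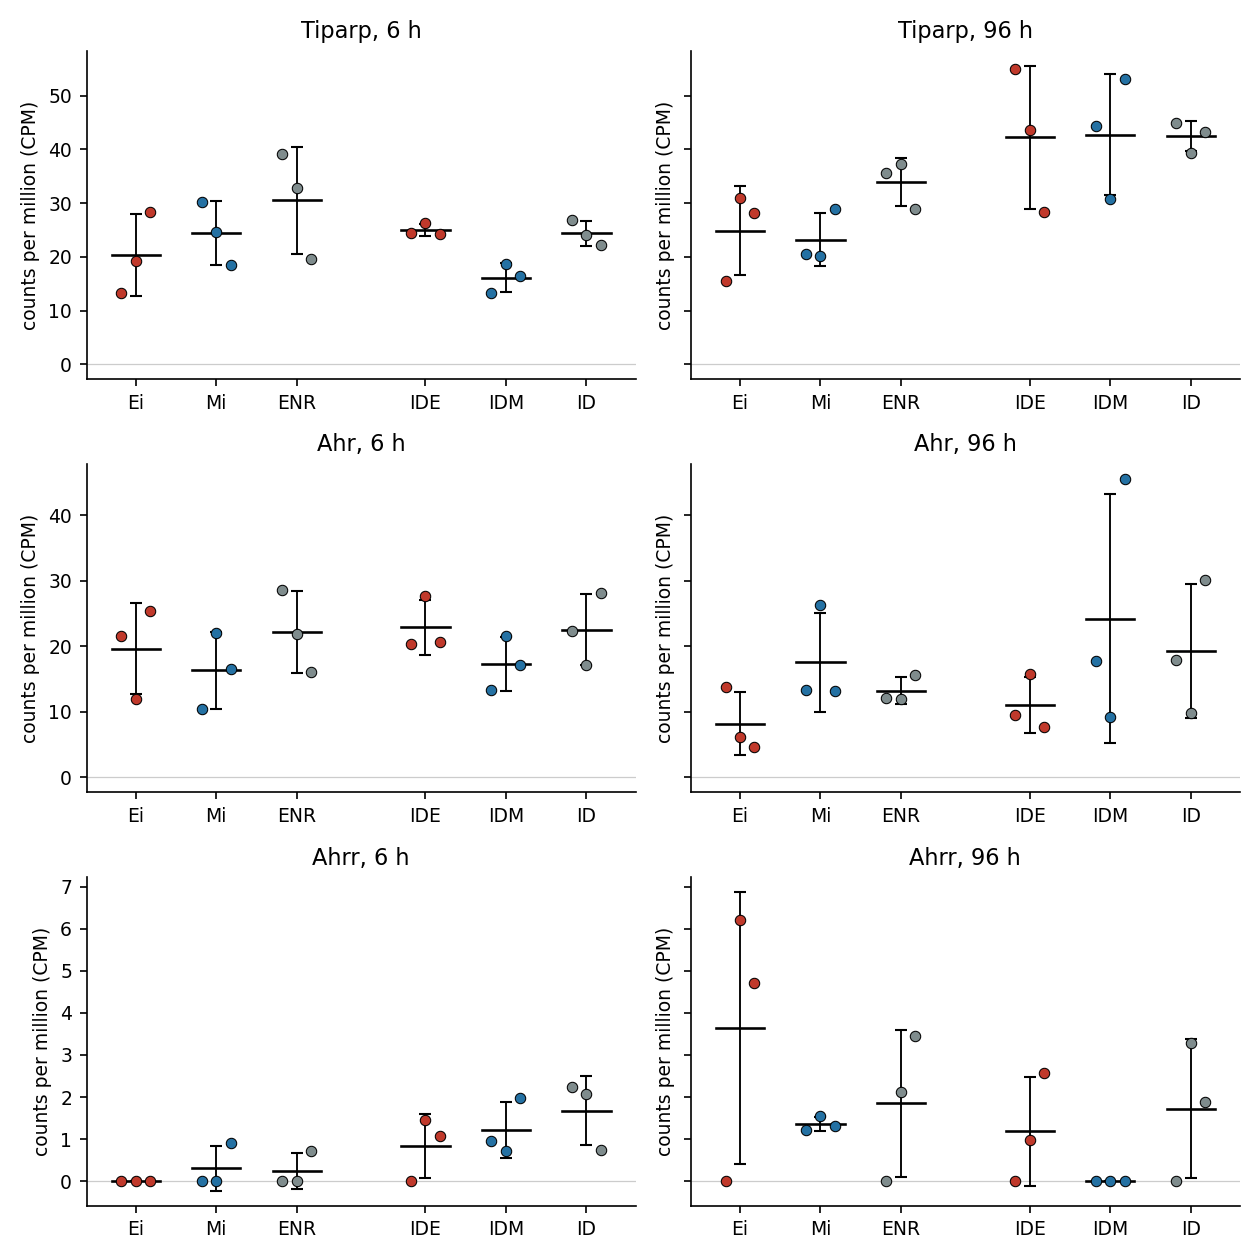
Tiparp (top), Ahr (middle) and Ahrr (bottom) in CPM in each library (points), with the group mean (line) and SD (bar), at 6 h (left) and 96 h (right). The 3 IDM libraries lie below the IDE and ID libraries for Tiparp at 6 h, all groups overlap for Ahr at 6 h, and Ahrr stays at or under 6.20 CPM.

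In sorted cells only Tiparp and Ahr had enough counts to be tested. Tuft markers summed to 6912 to 6984 CPM in Dclk1+ Ei cells, 5210 to 5435 CPM in Dclk1+ ENR cells and 12.7 to 13.5 CPM in whole organoids. Stem cell markers summed to 976 to 1229 CPM in Lgr5+ Ei cells, 604 to 677 CPM in Lgr5+ ENR cells and 443 to 468 CPM in whole organoids. Both sorts thus carry the markers of their labels, which include Dclk1 and Lgr5 themselves, the Lgr5+ sort by a smaller margin. Both also held Paneth markers. Paneth markers summed to 609 to 1149 CPM in Lgr5-GFP ENR cells and 1952 to 2466 CPM in Lgr5-DTR ENR cells. They summed to 180 and 2387 CPM in the Dclk1+ ENR libraries and to 112 and 648 CPM in the Dclk1+ Ei libraries. In whole organoids they summed to 5364 to 7035 CPM. The part of Paneth cells in the values of Ahr and Tiparp was not tested. Because Dusp6 was higher in the Dclk1+ libraries labelled Ei, the differences there are those between libraries as labelled.

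Ahr had 19 and 23 counts in the Dclk1+ libraries labelled Ei, or 11.6 and 14.2 CPM, and 3 and 3 counts in the Dclk1+ libraries labelled ENR, or 4.09 and 2.48 CPM. The libraries did not overlap, but with 2 a group the difference was not called (log2 1.99, SE 1.01, 95% interval 0.01 to 3.98, adjusted p = 0.28). Tiparp had 12.8 and 7.41 CPM in the Dclk1+ libraries labelled Ei and 2.73 and 4.97 CPM in those labelled ENR (log2 1.33, SE 0.92, adjusted p = 0.44). In the Lgr5+ cells it had 11.2 and 2.84 CPM in Ei and 7.04 and 2.83 CPM in ENR for the Lgr5-GFP line, and 6.09 and 9.81 CPM in Ei and 3.15 and 2.26 CPM in ENR for the Lgr5-DTR line. Over both lines Ei minus ENR was log2 1.07 (SE 0.64, 95% interval -0.18 to 2.33, adjusted p = 0.41), and 0.41 without the first Lgr5-GFP Ei library. Ahr had 1.32 and 0 CPM in Ei and 2.01 and 1.42 CPM in ENR for the Lgr5-GFP line, and 8.63 and 3.82 CPM in Ei and 4.72 and 1.81 CPM in ENR for the Lgr5-DTR line, a log2 difference over both lines of -0.06 (SE 0.62, 95% interval -1.28 to 1.16, adjusted p = 0.99). The Ei mean lay below the ENR mean in the Lgr5-GFP line and above it in the Lgr5-DTR line, and whether the lines differ was not tested. By edgeR and by DESeq2 0 of the 5 members were called in either Ei comparison, where by edgeR 4.94% of 10325 tested genes were called in Lgr5+ cells and 3.34% in Dclk1+ cells, and 0 members had an unadjusted p under 0.05.

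Cyp1a1 was not listed for the 12 sorted libraries, of whose 15746 listed genes 1 had no count, and was taken as 0. In the Dclk1+ cells 0 counts allow up to 0.922 CPM in Ei and 1.55 CPM in ENR. The labels do not say how long the sorted organoids were treated, so these values are not set against those at 6 h. Cyp1b1 had 7 counts in 1 Lgr5-DTR ENR library and 0 in the other 11. Ahrr had 3 and 0 counts in Lgr5+ Ei cells and 0 and 4 in Lgr5+ ENR cells of the Lgr5-GFP line, and 0 in the other 8. Whole control organoids had 1 and 0 counts of Cyp1a1, 0 and 0 of Cyp1b1 and 2 and 1 of Ahrr. Against those organoids neither Ahr nor Tiparp was called in Lgr5+ ENR cells, where 12% of 10325 tested genes were, or in Dclk1+ ENR cells, where 30.3% were.

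**Figure D4:**
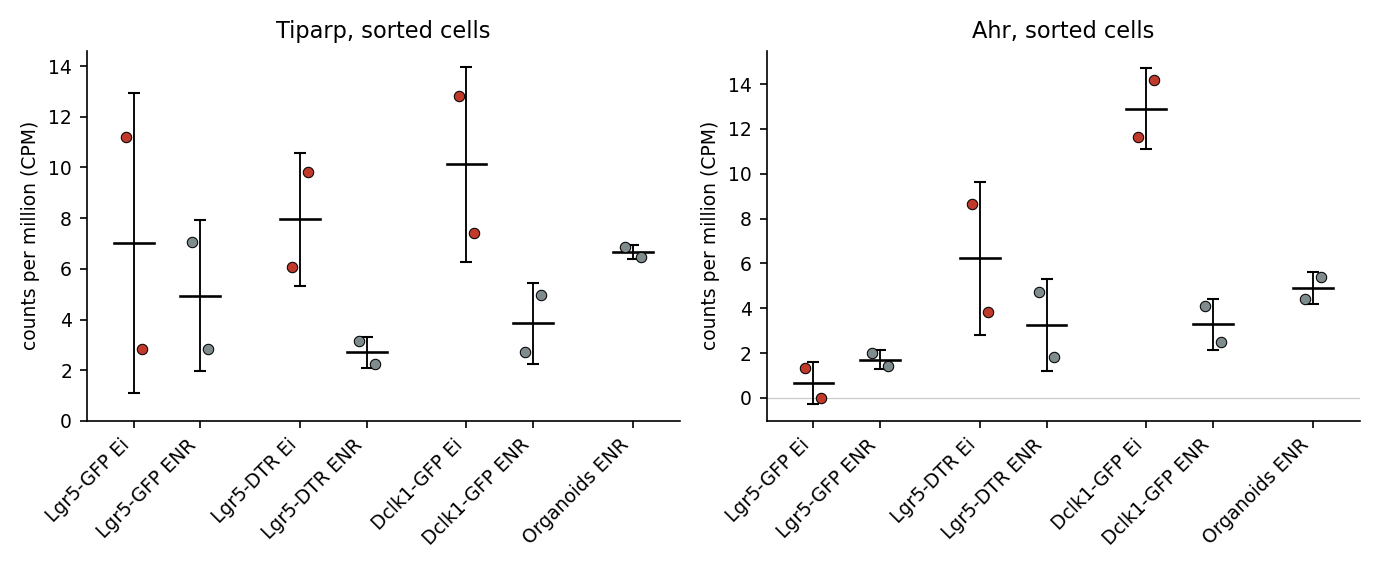
Tiparp (left) and Ahr (right) in CPM in each library (points), with the group mean (line) and SD (bar, n = 2), for sorted cells of Ei and ENR organoids and for whole ENR organoids. Ahr lies at 11.6 and 14.2 CPM in the Dclk1+ libraries labelled Ei and at 4.09 and 2.48 CPM in those labelled ENR.

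Single cells gave no value for the monooxygenases. In wells with at least 1500 transcripts Cyp1a1 and Cyp1b1 were listed in none of 167 IDE cells, 84 IDM cells, 71 Ei cells and 74 ENR cells. Over the group 0 transcripts allow up to 2.25 CPM in IDE and 4.77 CPM in IDM. Tiparp had 48.2 estimated transcripts over the IDE cells, 29.2 in IDM, 21.1 in Ei and 20 in ENR, which is 35.1 CPM in IDE, 47.7 CPM in IDM, 25.6 CPM in Ei and 17.2 CPM in ENR. All IDM transcripts of Tiparp came from the second IDM library, as the first had 0 over 21 cells. Summed per library, IDE minus IDM was log2 -0.17 (SE 0.53, 95% interval -1.20 to 0.86). By edgeR 0 of 5850 genes, or 0%, were called between these libraries, 115 had an unadjusted p under 0.05 and DESeq2 called 1. Ahr had 26.1 estimated transcripts in IDE, 15 in IDM, 17.1 in Ei and 15 in ENR, which is 19.1 CPM in IDE, 24.6 CPM in IDM, 20.8 CPM in Ei and 12.9 CPM in ENR, and was too low to be tested.

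Of the receptor's partners, 2 chaperone genes fell at 6 h with either inhibitor. The list held Arnt, Arnt2, Hsp90aa1, Hsp90ab1 and Ptges3, and all 5 were tested at 6 h. The 2 of 5 called stand beside 22.5% of all genes for IDE against ID and 20.7% for IDM against ID, and nothing about the list as a whole is read from that count. Hsp90aa1, the stress-inducible Hsp90, fell to 983 ± 53.7 CPM in IDE, against 1796 ± 129 CPM in ID (SD, n = 3 each, log2 -0.87, SE 0.13, adjusted p = 2.7e-06), and was 1048 ± 140 CPM in IDM (log2 -0.78 against ID, SE 0.13, adjusted p = 2.2e-05). Ptges3 fell to 328 ± 20.3 CPM in IDE, against 556 ± 22.3 CPM in ID (log2 -0.76, SE 0.12, adjusted p = 1.4e-05), and was 359 ± 23.9 CPM in IDM (log2 -0.63 against ID, SE 0.12, adjusted p = 0.00022). The other 3 were not called in either comparison, and between IDE and IDM 0 of the 5 were called by edgeR or DESeq2, with 1 at an unadjusted p under 0.05. The median log2 difference of the list was -0.24 for IDE minus ID and -0.58 for IDM minus ID, beside 0.03 for all 9380 genes in each. At 96 h 4 of the 5 were tested. Ptges3 was lower in Ei at 224 ± 27.4 CPM and in Mi at 269 ± 49.4 CPM, against 391 ± 13.7 CPM in ENR (adjusted p = 0.0013 and 0.013), and the Mi call was lost without the first Mi library (adjusted p = 0.065) or the second (0.076). At that time Hsp90aa1 was higher in IDE, at 1031 ± 68.8 CPM, than in ID, at 754 ± 7.79 CPM (log2 0.45, SE 0.16, adjusted p = 0.039), opposite to 6 h. That call was lost without the filter (adjusted p = 0.083), with only the groups compared (0.056) and without 1 of 5 libraries, up to 0.11. Arnt2 was below the filter at 96 h, with 11, 1 and 2 counts in Ei, 13, 9 and 10 in Mi and 3, 4 and 8 in ENR. Without the filter it was called against ENR for Ei (log2 1.91, SE 0.65, adjusted p = 0.035) and for Mi (log2 1.99, SE 0.53, adjusted p = 0.0029). Of the 4 tested, 1 was called in each of Ei and Mi against ENR and in IDE against ID, and 0 in IDM against ID by edgeR, with 0 at an unadjusted p under 0.05, beside 18.4%, 23.3%, 23.8% and 13.5% of all genes.

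Other genes that the receptor can induce rose in part with Cyp1a1 at 6 h, and at 96 h some rose and others fell. The list of 9 held Cyp1a2, Nqo1, Aldh3a1, Ugt1a6a, Ugt1a6b, Gsta1, Nfe2l2, Xdh and Ugdh, and Nqo1, Gsta1, Nfe2l2, Xdh and Ugdh were tested at both times. Cyp1a2, which lies beside Cyp1a1 on chromosome 9 and is mainly a liver enzyme, had 0 to 2 counts in every library, and Aldh3a1, Ugt1a6a and Ugt1a6b had 0 to 2 as well. Nqo1, a quinone reductase, and Ugdh, which makes the UDP-glucuronic acid used to tag foreign compounds, are also known as targets of Nfe2l2 (NRF2) or are widely expressed, so they are not specific to the receptor. Gsta1 has close paralogs that counting can confuse, and its values are uncertain.

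At 6 h 3 of these 5 were higher and 1 lower in IDE than in ID. Xdh, which encodes xanthine dehydrogenase, was at 15.9 ± 8.86 CPM in IDE and 3.87 ± 1.87 CPM in ID (log2 1.70, SE 0.48, adjusted p = 0.0081). Ugdh was at 711 ± 51.7 CPM in IDE and 463 ± 69.7 CPM in ID (log2 0.60, SE 0.14, adjusted p = 0.0013). Nqo1 was at 133 ± 12.9 CPM in IDE and 84.5 ± 26.7 CPM in ID (log2 0.56, SE 0.19, adjusted p = 0.024), and Nfe2l2 at 386 ± 50.5 CPM in IDE and 526 ± 34.1 CPM in ID (log2 -0.44, SE 0.14, adjusted p = 0.019). The calls of Xdh, Nqo1 and Nfe2l2 were lost without 1 of 2 or 3 libraries, among them the first IDE library in each case (adjusted p = 0.066, 0.069 and 0.11). In IDM 1 of the 5, Ugdh, was higher than in ID (log2 0.46, adjusted p = 0.015, and 0.057 to 0.13 without 1 of 3 libraries). Between IDE and IDM 0 of the 5 were called by edgeR or DESeq2, with 1 at an unadjusted p under 0.05. The 4 of 5 called for IDE against ID stand beside 22.5% of all genes, and the 1 of 5 for IDM against ID beside 20.7%, which is near the background. The median of the list was log2 0.56 for IDE minus ID and 0.39 for IDM minus ID, beside 0.03 for all genes.

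At 96 h Nqo1 went in opposite directions in the 2 media. In standard medium Nqo1 was lower, at 31.5 ± 12.8 CPM in Ei, 23.4 ± 4.31 CPM in Mi and 93.9 ± 14.8 CPM in ENR (SD, n = 3 each). The log2 difference was -1.37 for Ei minus ENR (SE 0.28, adjusted p = 0.00052) and -2.01 for Mi minus ENR (SE 0.24, adjusted p = 1.7e-07). With Wnt and Notch inhibition Nqo1 was higher, at 338 ± 38.8 CPM in IDE, 199 ± 31.2 CPM in IDM and 65.1 ± 20.6 CPM in ID. The log2 difference was 2.43 for IDE minus ID (SE 0.22, adjusted p = 1.2e-09) and 1.66 for IDM minus ID (SE 0.24, adjusted p = 8.3e-06). The difference between these effects was log2 -3.81 for the EGFR inhibitor (standard medium minus Wnt and Notch inhibition, SE 0.35, adjusted p = 2.3e-09) and -3.67 for the Mek inhibitor (SE 0.34, adjusted p = 9.4e-09). Medium and library set cannot be told apart in it.

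Ugdh at 96 h was called between the inhibitors in both media, and Gsta1 in standard medium. Ugdh was at 271 ± 58.1 CPM in Ei, 151 ± 30.9 CPM in Mi and 309 ± 7.91 CPM in ENR. Ei minus Mi was log2 0.83 (SE 0.21, adjusted p = 0.038), but this call was lost in 6 of 10 alternatives, with adjusted p up to 0.26. Ugdh was at 2427 ± 131 CPM in IDE, 1301 ± 196 CPM in IDM and 685 ± 139 CPM in ID. IDE minus IDM was log2 0.90 (SE 0.18, adjusted p = 0.0028), and the inhibitor difference did not depend detectably on the medium (log2 -0.08, SE 0.27, 95% interval -0.61 to 0.46, adjusted p = 0.97). Gsta1 was at 108 ± 17.4 CPM in Ei, 39.6 ± 10.4 CPM in Mi and 95.8 ± 13.5 CPM in ENR, and Ei minus Mi was log2 1.44 (SE 0.28, adjusted p = 0.0037). It was at 1116 ± 186 CPM in IDE, 741 ± 221 CPM in IDM and 606 ± 110 CPM in ID, and IDE minus IDM was not called (log2 0.60, SE 0.20, adjusted p = 0.075), although it was without the filter (0.017) or without the first IDM library (0.021). The dependence of this inhibitor difference on the medium was not called (log2 0.84, SE 0.34, adjusted p = 0.41). Nqo1 was higher in IDE than in IDM (log2 0.77, SE 0.20, adjusted p = 0.026), a call lost without 1 of 4 libraries (adjusted p from 0.051 to 0.19), while Ei minus Mi was 0.63 (SE 0.34, adjusted p = 0.55). Nfe2l2 was lower in both media, by log2 -0.82 for Ei minus ENR (SE 0.18, adjusted p = 0.0011) and -1.10 for IDE minus ID (SE 0.17, adjusted p = 1.9e-05).

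Of the 5 tested battery genes at 96 h, 2 were lower in Ei and 4 in Mi than in ENR, where 18.4% and 23.3% of all 8135 genes were called in either direction. The medians were log2 -0.40 for Ei and -1.03 for Mi, beside 0.02 for all genes. In IDE 3 were higher and 2 lower than in ID, and in IDM 2 were higher and 1 lower, where 23.8% of all genes were called for IDE and 13.5% for IDM, with medians of 0.89 and 0.29 beside -0.03 and 0.00 for all genes. Nqo1 and Ugdh were higher in IDE and IDM than in ID, whereas summed enterocyte markers were lower with either inhibitor in both media. All 6 were detected, and their sum was 860 to 979 CPM in Ei, 731 to 1021 CPM in Mi and 1207 to 1298 CPM in ENR, and 3695 to 5340 CPM in IDE, 3867 to 4472 CPM in IDM and 8493 to 11121 CPM in ID. Enteroendocrine markers summed to 6222 to 8828 CPM in IDE, 12023 to 12981 CPM in IDM and 2834 to 4515 CPM in ID. Their part in these results was not tested.

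**Figure D5:**
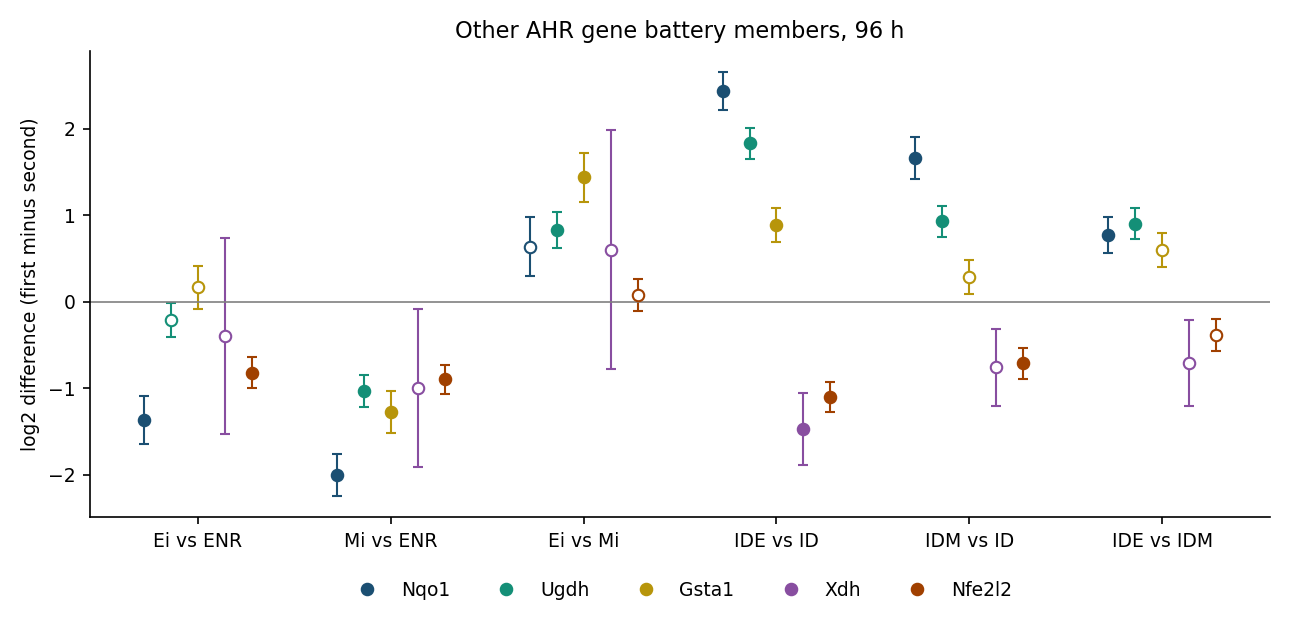
Log2 difference at 96 h, first group minus second, with SE as bars, for 5 other genes that the receptor can induce, in 6 comparisons of 3 libraries each. Filled points passed an adjusted p of 0.05 and open points did not; Nqo1 lies at -1.37 and -2.01 in Ei and Mi against ENR and at 2.43 and 1.66 in IDE and IDM against ID.

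The 5 genes whose levels were most like those of Cyp1a1 over the 18 libraries of 6 h were 8430408G22Rik (Pearson r = 0.93), Ptgr1 (0.92), Ccng2 (0.91), Marcksl1-ps4 (0.90) and Map1lc3b (0.90), on log2 CPM. These values are a description, since the 18 libraries share 6 treatments, and Marcksl1-ps4 is a pseudogene whose reads may belong to its parent gene. Over the same libraries r with Cyp1a1 was -0.37 for Tiparp and -0.06 for Ahr. Cyp1b1 and Ahrr were too low to be given a value.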

How the data were processed

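The deposited bulk tables hold raw counts per gene, whole numbers made by the authors; BWA 0.6.2-r126 and the build mm10 are named, per the submitters' processing notes. The counting program and annotation are not given in the sources used here. The deposited single-cell tables hold another unit, estimated transcripts per well, which were summed per library over wells with at least 1500 transcripts and rounded. Genes absent from a table were taken as 0.

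Libraries at 6 h, at 96 h and in the sorted set (with control organoids) were fitted apart with edgeR 4.0.16 in R 4.3.3 (filterByExpr, TMM scaling, quasi-likelihood test, Benjamini-Hochberg adjustment over all genes tested, threshold 0.05). CPM use TMM-scaled library sizes. Log2 differences are the first group minus the second, with approximate 95% intervals from the SE, and Lgr5+ comparisons average both lines. Where a group had 0 counts, ratios set the observed mean CPM of the other group against a floor of 3 counts. They allow for no error in that mean. The script was tested on simulated data. DESeq2 1.42.0, no filter, only the groups compared, a replicate block and leaving out each library were the alternatives.

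Members and lists were chosen with earlier results of these data known. Counts of members out of 5 include those below the filter, which were not tested. The filter passed 3 members at 6 h, 3 at 96 h, 2 in the sorted set and 1 in the single-cell libraries. All members and every gene of the 2 pathway lists may be named, less 1 gene that is not reported here, with Dusp6 as a check and the 5 genes most like Cyp1a1.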

Additional observations from a re-analysis of the deposited data

Results flagged for a closer look

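The effect of an inhibitor at 96 h differed between the media for 4 genes, by edgeR's quasi-likelihood test of the difference itself, chosen after seeing the data. Values are the log2 effect in standard medium minus that under Wnt and Notch inhibition, where medium and library set cannot be told apart. Nqo1 had -3.81 for the EGFR inhibitor (adjusted p = 2.3e-09) and -3.67 for the Mek inhibitor (adjusted p = 9.4e-09). Ugdh had -2.04 for the EGFR inhibitor (adjusted p = 1.4e-06) and -1.96 for the Mek inhibitor (adjusted p = 4.2e-06), and its log2 differences were -0.21 for Ei minus ENR, 1.83 for IDE minus ID, -1.03 for Mi minus ENR and 0.93 for IDM minus ID. Gsta1 had -1.56 for the Mek inhibitor (adjusted p = 0.0018), and -0.72 for the EGFR inhibitor was not called (adjusted p = 0.13). Ptges3 had -0.72 for the EGFR inhibitor (adjusted p = 0.047), a call lost in 10 alternatives, with adjusted p up to 0.086.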

How the results depend on the processing

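Of 60 results for single genes that passed the threshold, all kept their direction in 623 alternatives, 554 of these kept the call and 69 lost it. Alternatives that gave no adjusted p were counted as keeping the call, and fits in which a gene fell below the filter were left out. Counted in this way, none of the members' calls was lost. With only the groups compared, 0 members in place of 1 were called for IDM against ID at 6 h and for Ei and Mi against ENR at 96 h, because fewer libraries put the gene below the filter. Without the filter Ei against ENR at 96 h had 2 members called and IDE against IDM at 6 h had 1. DESeq2 called 1, Cyp1b1, for the dependence of the EGFR inhibitor's effect on medium. Both controls had 0 counts of it there, so that test cannot decide.

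Counts of all genes called moved more. Without the filter they were 28 for Ei against Mi (9 with it), 56 for ID against ENR (21) and 24 for IDE against IDM (2) at 6 h, 59 for the dependence of Ei against Mi on medium at 96 h (14), 766 for Lgr5+ (510) and 781 for Dclk1+ (345) Ei against ENR and 12 in single cells (0). DESeq2 gave 13 for IDE against IDM at 6 h, 61 for the dependence on medium, 792 for Lgr5+ and 720 for Dclk1+ Ei against ENR and 1 in single cells. With only the groups compared the counts were 53 for Ei against Mi at 96 h (88), 1431 for Lgr5+ and 21 for Dclk1+ Ei against ENR, and 2812 for Lgr5+ (1239) and 1781 for Dclk1+ (3130) ENR cells against organoids. The cause was not tested.

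Leaving out 1 library gave 5 to 21 genes for ID against ENR, 1 to 21 for Ei against Mi and 0 to 14 for IDE against IDM at 6 h. At 96 h it gave 948 to 1359 for Ei against ENR (1495), 56 to 85 for Ei against Mi, 105 to 330 for IDE against IDM (382), 719 to 936 for IDM against ID (1100) and 5 to 21 for the dependence on medium. In sorted cells it gave 233 to 295 for Lgr5+ and 310 to 703 for Dclk1+ Ei against ENR, and 432 to 859 for Lgr5+ and 1769 to 3082 for Dclk1+ ENR cells against organoids, and in single cells 0 to 6.

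The tests of whether each inhibitor's effect depends on the medium, and their alternatives, were chosen after seeing the data. Replicate numbers did not pair the libraries: deviations of same-numbered libraries correlated from -0.087 to 0.169 at 6 h and from -0.095 to 0.164 at 96 h. With a replicate block 2 genes were called for IDE against IDM at 6 h, 27 for the dependence on medium and 1 in single cells, and the members called were the same number in every comparison. Depth limits Ahrr throughout, Cyp1a1 at 96 h and Cyp1b1 at 6 h.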
